A study of Homo sapiens with 4 samples.

Results

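The genes described here are the core machinery of autophagy and its cargo receptors, 34 genes chosen by name from knowledge of the pathway. The choice was made with earlier results of these data known. Each gene was taken through probe sets that the platform annotation assigns to that gene alone. All 34 had such a probe set, among 19775 genes on the array that had one, and 29 of them passed the signal filter of 300 units (mean of the 4 arrays) among 8721 genes tested. Expression was measured in untreated HCT116 cells, a line derived from a human carcinoma of the colon, from 2 independent monolayer cultures and 2 independent cultures of multicellular spheroids (MCS), with 1 oligonucleotide array per culture. Per the study's histology, MCS hold a rim of dividing cells around a quiescent and hypoxic core, and each array measured both together. The study used the comparison to characterize MCS as a model of solid tumour tissue. In such bulk samples, fewer cells of a type and less RNA per cell cannot be told apart.

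Autophagy is the route by which a cell encloses part of its own cytoplasm in a double membrane, the autophagosome, and delivers it to the lysosome for degradation. The ULK1 kinase complex starts the process, a phosphatidylinositol 3-kinase complex marks the membrane, ATG9 vesicles and lipid transfer proteins make it grow, and conjugation enzymes attach ubiquitin-like proteins of the ATG8 family (LC3 and GABARAP) to it. Cargo receptors such as p62 (SQSTM1) bind ubiquitinated cargo on one side and ATG8 proteins on the other, and are degraded with the cargo. Autophagy is known to be raised by starvation and by hypoxia, and much of its control lies in phosphorylation and protein turnover, which transcript arrays do not measure.

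The arrays had been scaled alike, with a trimmed mean signal of 500.1 on each, and 27.5% to 30% of probe sets lay above 300 units. Signals are given per array as monolayer 1 and 2, then spheroids 1 and 2. Log2 differences are spheroids minus monolayer on the log2(signal + 32) scale (n = 2 per group) with moderated standard errors from the limma fit. These errors join the spread of each gene with that of other genes, so they do not measure its replicate spread alone. Folds are ratios of mean signals, and a gene was called at a Benjamini-Hochberg adjusted p under 0.05 in the limma fit over all 8721 genes. All 6 epithelial markers were above 300 units on every array, with EPCAM at 25873 to 29021 units and KRT18 at 30310 to 40270 units. Their levels moved with the culture type, since CLDN4, CDH1 and KRT19 were called higher in spheroids (log2 differences of 2.73, 1.73 and 0.79 in the limma fit) and KRT8 differed by -0.49 without being called. Of the 7 measured markers of leukocytes, endothelium and fibroblasts, PTPRC, CDH5 and PDGFRB stayed at or below 42.3 units, CD3E and COL1A2 at or below 94.0 units and PECAM1 at 107 to 199 units. COL1A1, a collagen gene, had 869 and 658 units in monolayers and 2222 and 2659 units in spheroids. The part of other cells and of these marker changes in the results below was not tested. The Bacillus spike-in controls were 1.82-fold brighter on the spheroid arrays, and the effect of scaling to them is given after the results by role. Their geometric means were 700 and 787 units in monolayers against 1640 and 1113 units in spheroids, so the 2 spheroid arrays differed from each other.

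With the deposited scaling, more of the members were higher than lower in spheroids, and with spike-in scaling more were lower than higher. Of the 29 tested members, 10 were called higher (34.5%) and 2 lower (6.9%), while 17 were not called. Over all 8721 genes tested, 19% were called higher and 20.6% lower. With the arrays scaled to their medians, 6 members were called higher and 3 lower, ATG16L1 in addition, where 9.41% of all genes were called higher and 28.2% lower. With the arrays scaled to the spike-in controls, 2 members were called higher and 8 lower, where 2.1% of all genes were called higher and 45.8% lower. All signals of both spheroid arrays lay above both monolayer arrays for 15 members and below them for 6, and the groups overlapped for 8. The corresponding shares over all genes were 33.4% above and 36.6% below. The median log2 difference of the tested members was 0.28, ranging from -1.16 to 2.79, against a median of -0.03 (quartiles -0.41 and 0.38) over all genes. The increases were spread over the ATG8 family, the cargo receptors, the ULK1 complex and the membrane proteins, and both decreases were among the conjugation enzymes. Of the tested conjugation enzymes 22.2% were called lower, near the 20.6% of all genes.

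**Figure D1:**
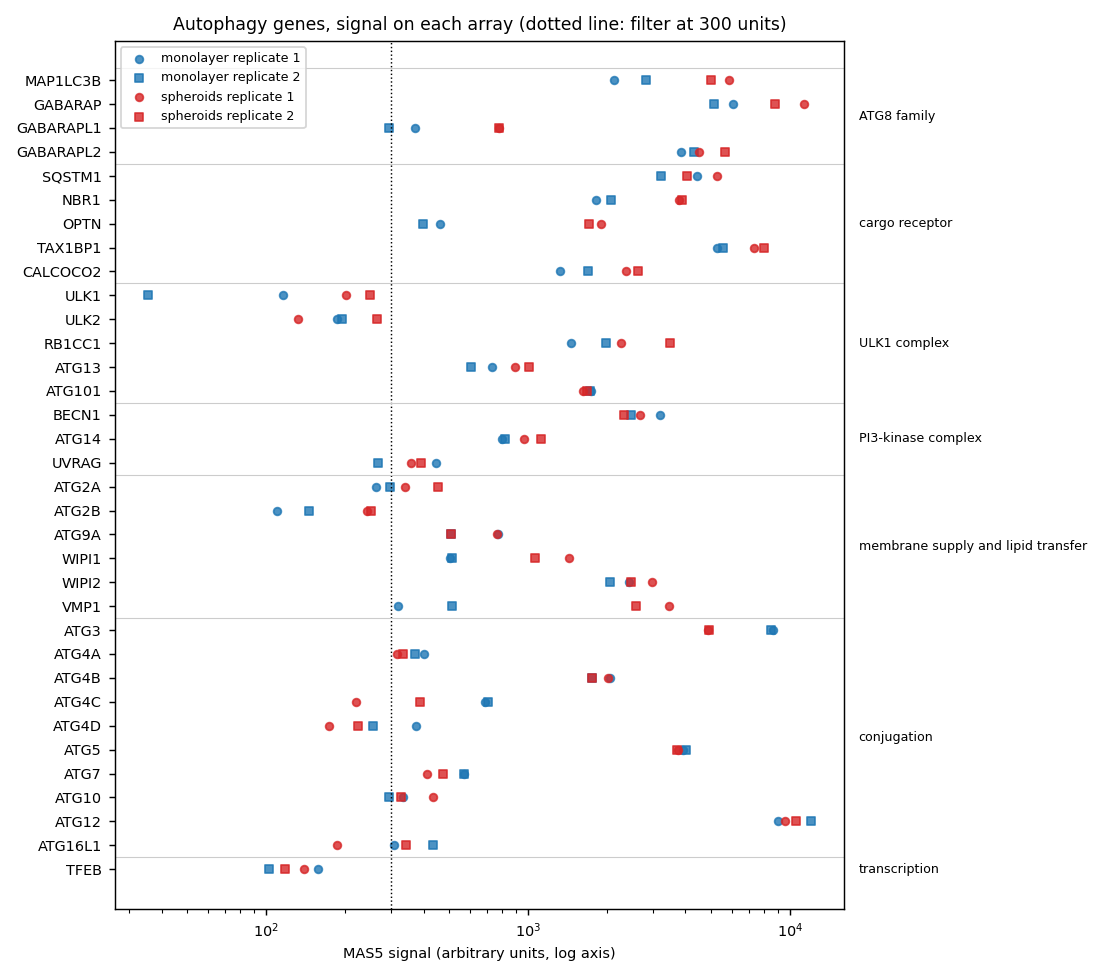
Signal of each of the 34 autophagy members on each of the 4 arrays (log axis, array units), grouped by role, with monolayer and spheroid arrays in separate colours and the filter of 300 units marked. VMP1 and OPTN show wide gaps between the culture types, whereas the 5 members that did not pass the filter lie mostly left of the line.

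To show the region in front of the start of genes at both ends of the range, the 250 bases before the RefSeq start site (GRCh38.p14) are printed for the members with the largest increases, VMP1 and OPTN, and for both that were lower, ATG3 and ATG4C. They are VMP1 at chr17:59707404-59707653 (plus strand), OPTN at chr10:13099832-13100081 (plus strand, the first of its start sites), ATG4C at chr1:62783882-62784131 (plus strand) and ATG3 at chr3:112561963-112562212 (minus strand). Capitals mark ACGTG, a form of the core of the hypoxia response element, on either strand (CACGT on the opposite one). Other forms of that core were not searched.
VMP1: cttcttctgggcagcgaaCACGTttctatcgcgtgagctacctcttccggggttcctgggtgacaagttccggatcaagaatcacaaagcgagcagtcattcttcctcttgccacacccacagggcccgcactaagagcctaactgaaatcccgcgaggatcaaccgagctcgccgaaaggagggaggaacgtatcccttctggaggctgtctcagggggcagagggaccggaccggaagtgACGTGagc
OPTN: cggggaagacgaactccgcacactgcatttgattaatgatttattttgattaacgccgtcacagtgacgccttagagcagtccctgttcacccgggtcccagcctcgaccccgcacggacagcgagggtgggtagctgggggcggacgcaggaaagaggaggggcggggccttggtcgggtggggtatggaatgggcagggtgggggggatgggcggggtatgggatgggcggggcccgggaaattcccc
ATG4C: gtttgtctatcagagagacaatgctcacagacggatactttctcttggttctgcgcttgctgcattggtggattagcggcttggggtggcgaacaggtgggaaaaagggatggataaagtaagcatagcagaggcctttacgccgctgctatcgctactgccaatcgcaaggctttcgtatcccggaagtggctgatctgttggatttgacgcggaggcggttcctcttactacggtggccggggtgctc
ATG3: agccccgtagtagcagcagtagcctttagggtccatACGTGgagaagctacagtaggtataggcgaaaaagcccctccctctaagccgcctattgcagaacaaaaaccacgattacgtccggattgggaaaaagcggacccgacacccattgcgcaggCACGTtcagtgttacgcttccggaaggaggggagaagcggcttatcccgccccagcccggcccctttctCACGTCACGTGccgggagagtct
The ATG3 window had 5 matches in these 250 bases and the VMP1 window 2, whereas those of OPTN and ATG4C had none. Matches were counted on each strand, so the CACGTG in the ATG3 window was counted on both. The 8-letter palindrome TCACGTGA, the core of the site bound by TFEB, which contains CACGTG and therefore ACGTG on both strands, was found in a single member, ATG3, starting at base 5 after its start site. It is shown in capitals with 10 bases on each side, from chr3:112561941-112561968 (minus strand).
ATG3 site: gagtctagtgTCACGTGAggccccggtg

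Promoter windows of 250 bases before to 50 bases after the start were present for 31 of the 34 members, 40 windows in all. ACGTG, searched on both strands, was in 12 of these windows (30%) and in 21.4% of 35116 windows of all genes. TCACGTGA was in 1 of the 40 windows (2.5%) and in 0.98% of all windows. By member, ACGTG was present for 2 of the 9 higher members with a window, CALCOCO2 and VMP1, for 1 of the 2 lower members, ATG3, and for 9 of the 16 that were not called. A match describes letters in a window, not a bound site.

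The ATG8 family, whose proteins are attached to the growing membrane and recruit cargo, had 3 of 4 members called higher. Over all genes tested 19% were called higher, and with spike-in scaling 2.1%. With spike-in scaling none of the 3 calls held: MAP1LC3B differed by 0.28 and GABARAPL1 by 0.35, while GABARAP and GABARAPL2 turned in sign. MAP1LC3B, the gene of LC3B, had signals of 2129.5 and 2817 in monolayers against 5877 and 5019 in spheroids. Both spheroid arrays exceeded both monolayer arrays by a wide margin, a 2.20-fold difference of means and a log2 difference of 1.14 ± 0.17 (limma, adjusted p = 0.000261). GABARAP, a member of the other branch of the family, had signals of 6083 and 5132 in monolayers against 11315 and 8805 in spheroids. The groups did not overlap, and the 1.79-fold difference corresponded to 0.83 ± 0.15 (limma, adjusted p = 0.00105), a call that was lost with the arrays scaled to their medians (0.57). GABARAPL1 had signals of 371 and 295 in monolayers against 777 and 779.7 in spheroids. The spheroid arrays were nearly equal and 2.34-fold above the monolayer mean, a log2 difference of 1.16 ± 0.23 (limma, adjusted p = 0.00172). A further probe set, assigned to both GABARAPL1 and the near-identical GABARAPL3, differed by 1.52 and was left out. GABARAPL2 had signals of 3853 and 4317 in monolayers against 4497 and 5670.1 in spheroids. Although both spheroid arrays were above the monolayer arrays, its log2 difference of 0.31 ± 0.15 was not called (95% interval -0.03 to 0.64; limma, adjusted p = 0.135).

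The cargo receptors, which tether ubiquitinated material to ATG8 proteins, had 4 of 5 members called higher, against 19% of all genes tested. With spike-in scaling OPTN alone was still called, where 2.1% of all genes were called higher. On that scale NBR1 differed by 0.11, and TAX1BP1, CALCOCO2 and SQSTM1 turned in sign. OPTN, the gene of optineurin, a receptor for damaged mitochondria and intracellular bacteria, had signals of 463 and 397 in monolayers against 1897 and 1714 in spheroids. Both spheroid arrays were more than 3 times every monolayer array, a 4.20-fold difference of means and a log2 difference of 1.99 ± 0.20 (95% interval 1.57 to 2.42; limma, adjusted p = 1.49e-05). NBR1, a receptor that works together with p62, had signals of 1824 and 2077 in monolayers against 3770.5 and 3869 in spheroids. Replicates lay close together, and the 1.96-fold difference corresponded to 0.96 ± 0.15 (limma, adjusted p = 0.000444). CALCOCO2, the gene of NDP52, had signals of 1323 and 1698 in monolayers against 2379 and 2624 in spheroids. The groups did not overlap, with a 1.66-fold difference of means and a log2 difference of 0.72 ± 0.18 (limma, adjusted p = 0.00645). TAX1BP1, a relative of NDP52, had signals of 5269.9 and 5587 in monolayers against 7317 and 7999 in spheroids. Its 1.41-fold difference was the smallest among the called receptors, with a log2 difference of 0.49 ± 0.13 (limma, adjusted p = 0.0101). The call of CALCOCO2 was lost without monolayer 1 (0.55) and that of TAX1BP1 without spheroids 2 (0.43), and both were lost with the arrays scaled to their medians.

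**Figure D2:**
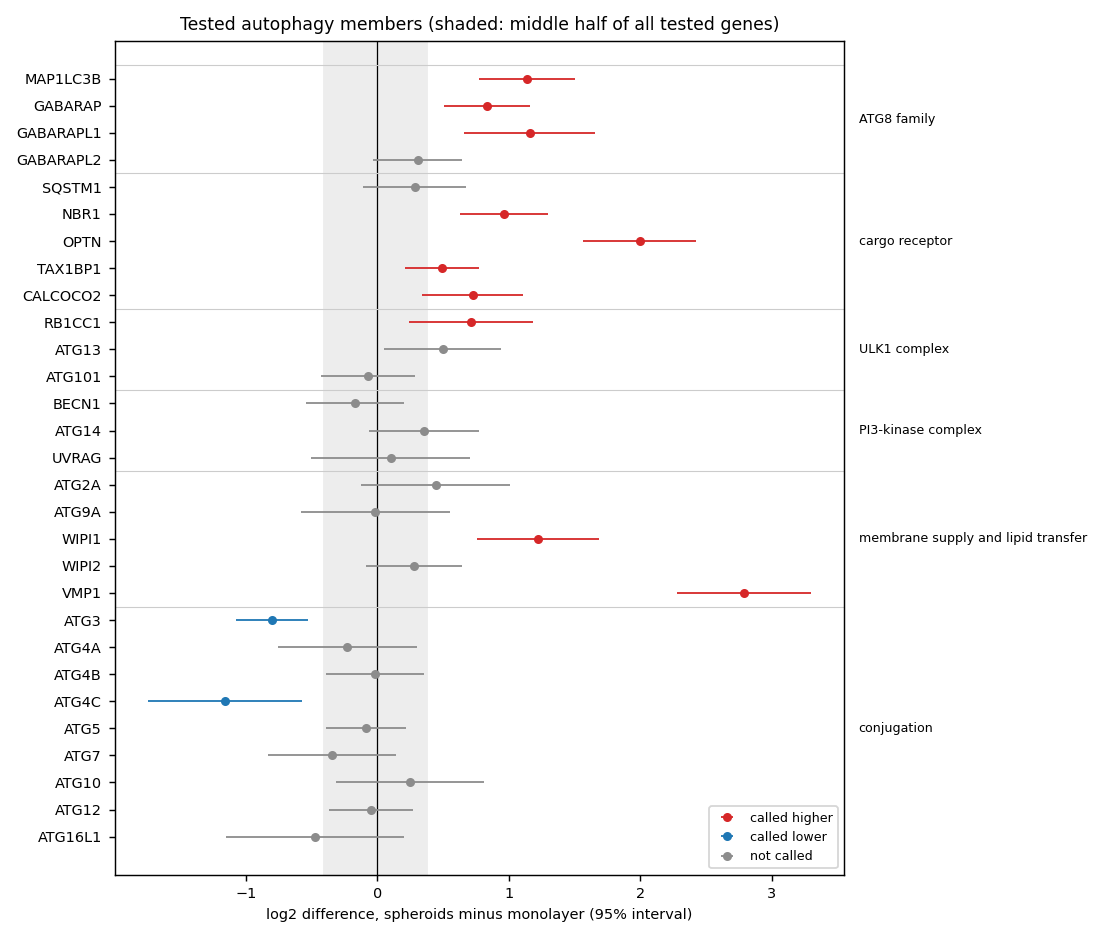
Log2 difference, spheroids minus monolayer, of the 29 tested members by role, with bars giving 95% intervals (n = 2 arrays per group) colours giving the call and shading from the lower to the upper quartile of all tested genes. The ATG8 family lies right of 0 and the cargo receptors do too, while 8 of 9 conjugation members lie left of 0; with spike-in scaling the median of all members falls to -0.55 and GABARAP, GABARAPL2, SQSTM1, TAX1BP1 and CALCOCO2 turn in sign.

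SQSTM1, the gene of p62, was the receptor that was not called, and its probe sets differed. The brightest, 201471_s_at, which represents the gene, had signals of 4423 and 3235 in monolayers against 5261 and 4039 in spheroids. The groups overlapped, since spheroids 2 was below monolayer 1, and the log2 difference was 0.28 ± 0.18 (95% interval -0.11 to 0.68; limma, adjusted p = 0.237 over genes). This interval extends from a small decrease to an increase of 0.68 on the log2 scale. The second tested probe set, 213112_s_at, had signals of 309.9 and 262 in monolayers against 275 and 423 in spheroids, which overlapped. Its log2 difference of 0.24 ± 0.28 was not called (limma over 14162 probe sets, adjusted p = 0.546). The third, 244804_at, had signals of 246 and 166 in monolayers against 535 and 431 in spheroids. Here both spheroid arrays were above both monolayer arrays, and the log2 difference of 1.12 ± 0.28 was called higher (95% interval 0.51 to 1.74; limma over 14162 probe sets, adjusted p = 0.0109), where 16.8% of all probe sets were called higher and 17.2% lower. Both monolayer arrays were under 300 units, so this probe set passed the filter only through the spheroid arrays, and with no filter it was not called (limma, adjusted p = 0.0581). The call was also lost when spheroids 1 was left out. Of the dimmer probe sets, which did not pass the filter, 239004_at went the other way, with 277 and 267 in monolayers against 164 and 97.7 in spheroids. The last, 242568_s_at, had signals of 84.9 and 68.2 in monolayers against 107 and 57.3 in spheroids, which overlapped. Probe sets of 1 gene are not replicates, and which transcripts each detects was not analysed here.

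**Figure D3:**
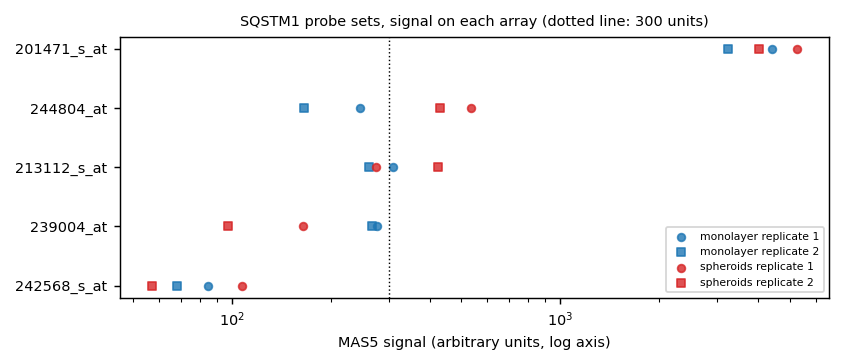
Signal of the 5 SQSTM1 probe sets on each of the 4 arrays (log axis, array units), with monolayer and spheroid arrays in separate colours. Spheroid arrays lie above monolayer arrays for 244804_at, below them for 239004_at and overlap with them for the other 3.

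In the ULK1 complex, which receives the nutrient signals that start autophagy, 1 of 3 tested members was called higher, against 19% of all genes tested. RB1CC1, the gene of the scaffold FIP200, had signals of 1459.6 and 1994 in monolayers against 2273 and 3489 in spheroids. The groups did not overlap but replicates of each were far apart, with a 1.67-fold difference of means and a log2 difference of 0.71 ± 0.22 (limma, adjusted p = 0.0205) that was lost without monolayer 1 (0.49) or without spheroids 2 (0.41) and turned in sign with spike-in scaling. ATG13, which links the kinase to the scaffold, had signals of 731 and 607 in monolayers against 897 and 1014 in spheroids. The groups did not overlap, but the log2 difference of 0.50 ± 0.21 was not called (limma, adjusted p = 0.0722). ATG101, the partner of ATG13, differed by -0.07 ± 0.16 (95% interval -0.43 to 0.29; limma, adjusted p = 0.761). The kinase gene ULK1 did not pass the filter, with signals of 116 and 35.4 in monolayers against 203 and 251 in spheroids. Both spheroid arrays were above the monolayer arrays, a 2.99-fold difference of means, but monolayer 2 was close to the highest signal of the unspiked bacterial controls, 35.0 units. With no filter, the ULK1 difference was not called (limma, adjusted p = 0.112), where 6.76% of all genes were called higher and 6.66% lower. With the filter at a mean of 100 units it was called higher (1.37 ± 0.42; limma, adjusted p = 0.0272). In that setting 16.8% of all genes were called higher and 15.7% lower, and the ULK1 monolayer mean of 75.9 units was under the filter. Its paralog ULK2 was also below the filter, with overlapping signals of 186 and 195 in monolayers against 132.6 and 265 in spheroids.

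Of the phosphatidylinositol 3-kinase complex that marks the forming membrane, 3 subunits were members. None was called or had an unadjusted limma p under 0.05, where 19% of all genes tested were called higher and 20.6% lower. The kinase itself, PIK3C3, belongs to the other genes below and was called higher (0.59 ± 0.18; limma, adjusted p = 0.0197). Its regulatory subunit PIK3R4 was called lower (-0.76 ± 0.21; limma, adjusted p = 0.0132). PIK3C3 differed by 0.43 without monolayer 1 and by -0.25 with spike-in scaling, and PIK3R4 by -0.44 without spheroids 1. BECN1, the gene of the scaffold Beclin 1, differed by -0.17 ± 0.17 (limma, adjusted p = 0.455) with overlapping groups. ATG14, the subunit that directs the complex to autophagy, had signals of 795 and 818 in monolayers against 964 and 1120.2 in spheroids. Its groups did not overlap, and the log2 difference of 0.35 ± 0.19 was not called (95% interval -0.07 to 0.77; limma, adjusted p = 0.168). UVRAG, the subunit of the alternative complex of endosomes, differed by 0.10 ± 0.28 (limma, adjusted p = 0.8). Monolayer replicates of UVRAG were 448 and 267, on both sides of the spheroid arrays.

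Among the proteins of membrane supply and lipid transfer, 2 of 5 tested members were called higher, against 19% of all genes tested. With spike-in scaling VMP1 alone was called higher, against 2.1% of all genes, and WIPI1 differed by 0.39. Of the 2 members, 1 had the largest increase of all members. VMP1, a lipid scramblase of the endoplasmic reticulum needed for autophagosome formation, had signals of 319 and 514 in monolayers against 3449 and 2587.5 in spheroids. The lower spheroid array was 5 times the higher monolayer array, and the 7.25-fold difference of means corresponded to 2.79 ± 0.24 (95% interval 2.28 to 3.30; limma, adjusted p = 4.07e-06). The gene of the microRNA miR-21 lies at the end of VMP1, and 3 probe sets assigned to both were left out because their signal cannot be assigned to either alone; their log2 differences were 0.80, 2.19 and 2.69. WIPI1, which binds the phosphoinositide made by the PI3-kinase complex, had signals of 507 and 514 in monolayers against 1433 and 1063 in spheroids. Monolayer replicates were nearly equal and both spheroid arrays exceeded them, a 2.44-fold difference and a log2 difference of 1.22 ± 0.21 (limma, adjusted p = 0.000771). Its relative WIPI2, which brings in the conjugation machinery, differed by 0.28 ± 0.17 (limma, adjusted p = 0.206). The lipid scramblase ATG9A had overlapping groups and differed by -0.01 ± 0.26 (95% interval -0.58 to 0.55; limma, adjusted p = 0.97). The lipid transfer protein gene ATG2A differed by 0.44 ± 0.26 (limma, adjusted p = 0.199), with both monolayer arrays (264 and 299) under the filter. Its paralog ATG2B did not pass the filter, with signals of 109.9 and 146 in monolayers against 243 and 252 in spheroids, both spheroid arrays being higher.

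The conjugation enzymes, which process ATG8 proteins and attach them to lipid, had 2 of 9 tested members called lower and 7 not called. This share of 22.2% was near the 20.6% of all genes tested that were called lower. The median log2 difference of these enzymes was -0.23, against -0.03 over all genes. ATG3, the E2-like enzyme that transfers ATG8 proteins to the lipid, had signals of 8651 and 8503 in monolayers against 4895 and 4928 in spheroids. Replicates of each culture type lay within a few percent of each other, and signals were 1.75-fold higher in monolayers, a log2 difference of -0.80 ± 0.13 (95% interval -1.08 to -0.52; limma, adjusted p = 0.00042). ATG4C, one of 4 genes of the proteases that trim ATG8 proteins, had signals of 689 and 704 in monolayers against 221 and 389 in spheroids. The groups did not overlap although the spheroid arrays differed, with signals 2.28-fold higher in monolayers and a log2 difference of -1.16 ± 0.27 (limma, adjusted p = 0.00494). Of the other proteases, ATG4A differed by -0.23 ± 0.25 and ATG4B by -0.02 ± 0.17, neither called, and ATG4D was below the filter with 374 and 256 in monolayers against 174 and 224 in spheroids.

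The E1-like enzyme gene ATG7 differed by -0.35 ± 0.22 (limma, adjusted p = 0.241), with both spheroid arrays (412 and 474) below both monolayer arrays (571 and 572). ATG10, the E2-like enzyme for ATG12, was the single tested conjugation member with a positive difference, 0.25 ± 0.26, and was not called (limma, adjusted p = 0.48). ATG12 differed by -0.05 ± 0.15 (limma, adjusted p = 0.821) and ATG16L1, which places the ATG12-ATG5 conjugate on the membrane, by -0.47 ± 0.31 (limma, adjusted p = 0.25), both with overlapping groups. ATG5 differed by -0.09 ± 0.14 (limma, adjusted p = 0.66) on its brightest probe set, where spheroid signals (3744 and 3728) were slightly below monolayer signals (3922 and 4011). A dimmer ATG5 probe set, 202512_s_at, had signals of 608 and 639.7 in monolayers against 911 and 1161 in spheroids. It was called higher (0.69 ± 0.21; limma over probe sets, adjusted p = 0.026), so that the probe sets of ATG5 did not give one direction. TFEB, a transcription factor that activates autophagy and lysosome genes, did not pass the filter and had overlapping signals of 158 and 103 in monolayers against 140 and 119 in spheroids.

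For the 17 tested members that were not called, log2 differences ran from -0.47 to 0.50 and the bounds of their 95% intervals from -1.15 to 1.01. Changes of up to 2-fold in either direction thus lie within some of these intervals, and 2 arrays per group cannot show that these genes were equal. Across the 34 members there were 80 probe sets assigned to 1 gene, of which 51 passed the filter. Of 16 members with several tested probe sets, 14 had the same call on each, the exceptions being SQSTM1 and ATG5. For ATG13, BECN1, WIPI2, ATG4B, ATG7 and ATG12 the shared result was that no probe set was called. The sign was the same on each for 14 as well, the exceptions being WIPI2 and ATG5. For CALCOCO2 the second probe set gave 1.53 against 0.72, and for OPTN 2.30 against 1.99. This agreement is partly set by the filter. Of the 51 probe sets, 4 were under 300 units on both monolayer arrays and passed only through the spheroid arrays, namely the second of OPTN, the second of GABARAPL1, 244804_at of SQSTM1 and that of ATG2A. The second of CALCOCO2 had 305 and 269 units in monolayers against 795 and 986 in spheroids, so that it too passed through the spheroid arrays. Of the 12 called members, 9 were represented by a probe set with the suffix _s_at, which marks probes shared by several transcripts.

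**Figure D4:**
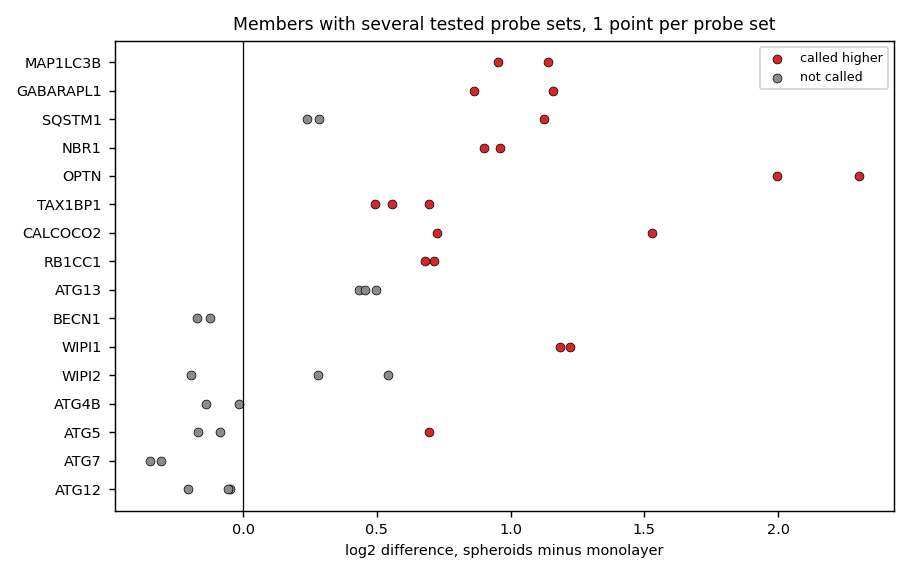
Log2 difference, spheroids minus monolayer, of every tested probe set of the 16 members with more than 1, 1 point per probe set, with its call in colour. The probe sets of each member lie on one side of 0 except for WIPI2 and ATG5, and the calls differ for SQSTM1 and ATG5.

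The scaling of the arrays set the direction of several members. With the arrays scaled to the spike-in controls, the median log2 difference of all genes moved from -0.03 to -0.87, a shift of -0.84, and that of the members to -0.55. Standard errors were larger with this scaling, 0.41 against 0.17 for MAP1LC3B and 0.40 against 0.15 for GABARAP. A call lost with it can therefore reflect the wider error as well as the smaller difference. On that scale OPTN (1.17) and VMP1 (1.96) were the 2 members called higher. The 8 members called lower were ATG3 (-1.66), ATG4C (-1.94), BECN1 (-1.03), ATG4A (-1.01), ATG5 (-0.94), ATG7 (-1.15), ATG12 (-0.91) and ATG16L1 (-1.24). Relative to the median of all genes, MAP1LC3B was higher by 1.15 with spike-in scaling and by 1.17 with the deposited scaling. Such scaling divides each array by 1 factor, so all genes shift nearly alike and their order could hardly change. The differences in this report are therefore relative to the average signal of each array. Which scaling is nearer to the RNA content of a cell was not tested.

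Other genes of the pathway were taken from a list of 42, of which 33 were tested, with 10 called higher (30.3%), 5 lower (15.2%) and 18 not called, and a median log2 difference of 0.15. Over all 8721 genes tested, 19% were called higher and 20.6% lower, with a median of -0.03. The same shares stand beside the counts by role that follow. The 5 tested genes of autophagosome fusion with the lysosome were all called, but in both directions. STX17, the syntaxin of the autophagosome, was higher by 0.57 ± 0.19 and its lysosomal partner VAMP8 by 0.46 ± 0.17, whereas SNAP29, YKT6 and RAB7A differed by -0.53 ± 0.19, -0.73 ± 0.21 and -0.49 ± 0.16. With spike-in scaling STX17 (-0.27) and VAMP8 (-0.40) turned in sign and were not called, and each of the 5 calls was lost on leaving out at least 1 array. Of the 14 regulators tested, 6 were higher and 2 lower, with PIK3C3 (-0.25), WDR45B (-0.34) and TMEM41B of the higher ones turning in sign with spike-in scaling, and of 7 AMPK subunit and activator genes 1 was higher.

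The 8 called genes of this list with the largest differences included both directions. EI24, an endoplasmic reticulum protein needed for autophagosome formation, had signals of 11433 and 8855 in monolayers against 4576 and 4204 in spheroids. The groups were far apart, with a log2 difference of -1.19 ± 0.15. WDR45, a phosphoinositide-binding relative of WIPI1, had signals of 531 and 472 in monolayers against 1602 and 907 in spheroids, a log2 difference of 1.22 ± 0.26. TFE3, a relative of TFEB with the same targets, had signals of 576 and 487 in monolayers against 1418 and 945 in spheroids, a log2 difference of 1.08 ± 0.23. The calls of EI24, WDR45 and TFE3 held with each array left out. TMEM41B, a scramblase that acts with VMP1, was higher by 0.78 ± 0.18, and ZFYVE1, which marks the membrane where autophagosomes form, by 0.86 ± 0.25. PRKAA2, a catalytic AMPK subunit, was higher by 0.89 ± 0.26 and TECPR1 by 0.76 ± 0.24. Both genes were under 300 units on both monolayer arrays and passed the filter only through the spheroid arrays, and neither was called with no filter (limma, adjusted p = 0.0853 and 0.0896). PIK3R4, the regulatory subunit of the PI3-kinase complex, was lower, with signals of 1927 and 1987 in monolayers against 911 and 1433 in spheroids and a difference of -0.76 ± 0.21. These last 5 calls did not hold with each array left out. TMEM41B was not called without spheroids 2 (0.55), PIK3R4 without spheroids 1 (-0.44), ZFYVE1 without monolayer 2 (0.60), spheroids 1 (0.84) or spheroids 2 (0.88), PRKAA2 without monolayer 1 (0.72), spheroids 1 (0.83) or spheroids 2 (0.96), and TECPR1 without any one of the 4 (0.71 to 0.82). With spike-in scaling none of the 33 was called higher, and none was higher at an unadjusted limma p under 0.05. On that scale 13 were called lower, EI24 and PIK3R4 among them, where 45.8% of all genes were called lower. Of these 8 genes, TMEM41B (-0.07) and TECPR1 (-0.03) turned in sign.

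**Figure D5:**
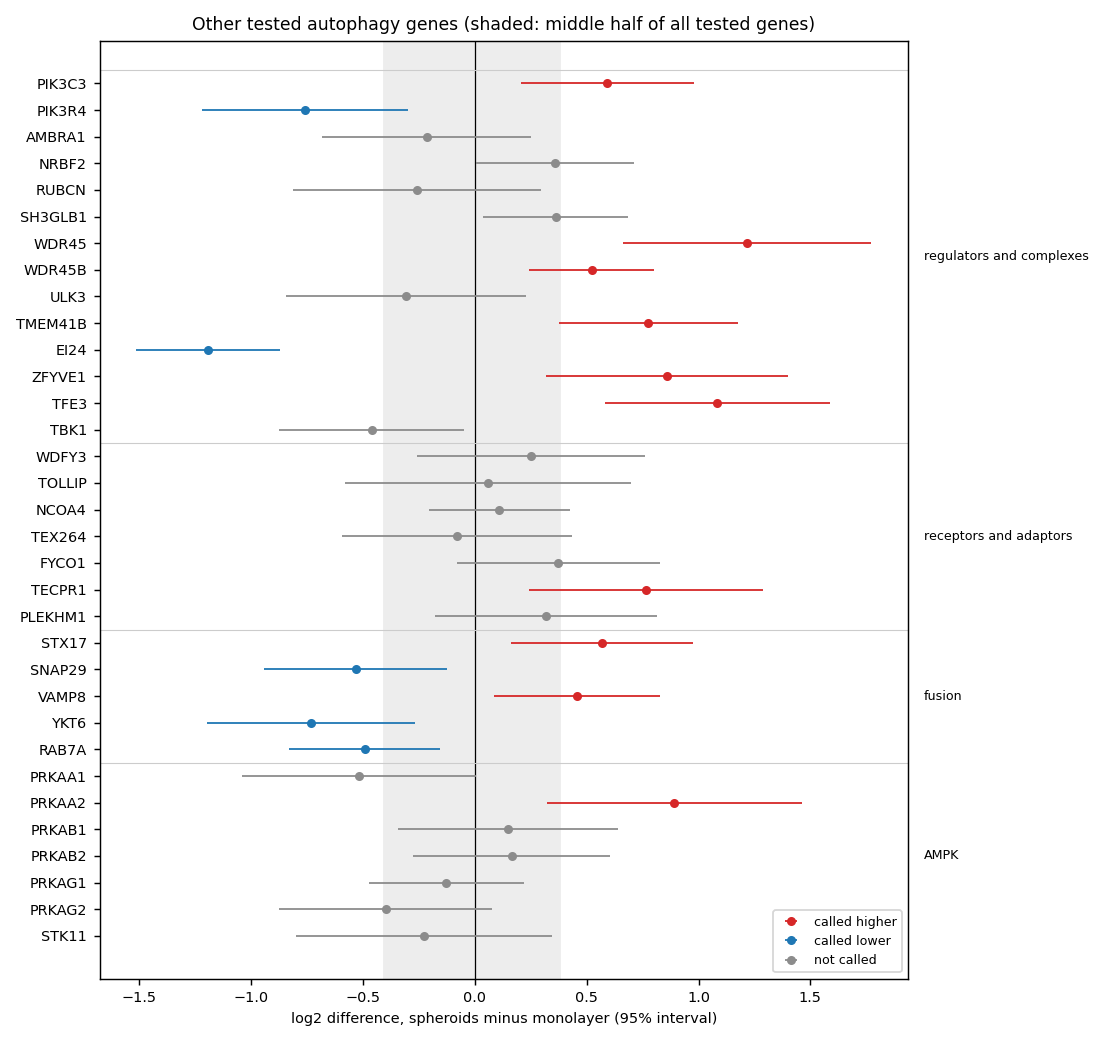
Log2 difference, spheroids minus monolayer, of the 33 tested autophagy genes outside the members, by role, with bars giving 95% intervals (n = 2 arrays per group) colours giving the call and shading from the lower to the upper quartile of all tested genes. WDR45 lies farthest to the right at 1.22 and EI24 farthest to the left at -1.19; with spike-in scaling STX17, VAMP8, TMEM41B and TECPR1, among others, turn in sign, and PRKAA2 and TECPR1 passed the filter only through the spheroid arrays.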

How the data were processed

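Total RNA from 2 monolayer and 2 spheroid cultures was hybridized to 1-colour Affymetrix arrays, and the deposited values are signal intensity per probe set, which the authors normalized with MAS5 (version not given in the sources used here). Members and gene lists were chosen with earlier results of these data known, and all members are named. Of the other autophagy genes, the 8 called with the largest differences were given in detail.

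Of 54675 probe sets, 41091 had 1 gene symbol in the platform annotation and 1801 had several, which were left out. The analysis used log2(signal + 32), a scale on which changes of dim genes appear too small. Each gene was represented by its brightest probe set, kept if its 4 arrays averaged over 300 units. The study used this level, together with present calls on the array, for its gene set analysis, and detection calls were not used here. Culture types were compared in limma (version 3.58.1 under R 4.3.3; lmFit and eBayes with an intensity trend, two-sided, Benjamini-Hochberg adjustment over all genes), where 2 residual degrees of freedom were joined by 10.5 from the prior. The number of arrays limits the precision. Arrays correlated across genes at 0.984 (monolayer), 0.979 (spheroids) and 0.889 to 0.902 between groups, and no arrays were identical. The 3' over 5' signal of ACTB lay at 2.64 and 2.34 for monolayers, and at 2.82 and 3 for spheroids. That of GAPDH went the other way, with 1.07 and 1.02 for monolayers against 0.931 and 0.921 for spheroids. Promoter windows came from RefSeq (GRCh38.p14). Filter, constant, scaling, probe set rule and intensity trend were each varied, a replicate block was added, each array was left out in turn, and a plain t-test was run. The study names Student's t-test in its general statistics, but for its arrays it describes ranking by mean ratios and no t-test.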

Additional observations from a re-analysis of the deposited data

How the results depend on the processing

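Of the 12 called members, 12 kept their direction with each array left out in turn. Under each alternative that could be run for them (13 to 15 of them), 8 kept the call, spike-in scaling and the plain t-test left aside. The filter on all 4 arrays removed GABARAPL1 and ATG4C, and leaving out _x_at and _s_at probe sets removed MAP1LC3B, GABARAPL1, NBR1 and ATG3. The exceptions were GABARAP (0.57 with median scaling), TAX1BP1 (0.23 with median scaling, 0.43 without spheroids 2), CALCOCO2 (0.46 with median scaling, 0.55 without monolayer 1) and RB1CC1 (0.45 with median scaling; also with no filter, with no intensity trend, without monolayer 1 and without spheroids 2). SQSTM1 was called higher with the mean of its probe sets (0.55), with _x_at and _s_at probe sets left out (1.12) and without monolayer 1 (0.51), so its call rests on the choice of probe set and array. The cause of these changes was not tested.

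Members called higher numbered 6 with median scaling (9.41% of all genes), 2 with spike-in scaling (2.1% of all genes) and 0 with the plain t-test (7 at an unadjusted p under 0.05; 0.0115% of all genes called). Members called lower numbered 1 with signals above 300 required on all 4 arrays (22.3% of all genes), 8 with spike-in scaling (45.8%), 1 when _x_at and _s_at probe sets were left out (18.3%) and 0 with the t-test (2 unadjusted; 0.0115% of all genes called). The members' median was 0.016 with median scaling and -0.55 with spike-in scaling, which shifted the median of all genes by -0.26 and -0.84, and lay between 0.16 and 0.36 with 1 array left out. Of the other autophagy genes, those called higher numbered 5 with no filter (6.76% of all genes) and 3 with median scaling (9.41%). They numbered 0 with spike-in scaling (2.1% of all genes; 0 unadjusted, limma) and 0 with the t-test (0.0115% of all genes; 5 unadjusted). Those called lower numbered 1 with no filter (6.66% of all genes), 8 with median scaling (28.2%) and 13 with spike-in scaling (45.8%). They numbered 3 with the mean of probe sets (19.5%), 2 with _x_at and _s_at ones left out (18.3%) and 0 with the t-test (0.0115%, 3 unadjusted). The number of other autophagy genes called higher fell with each array left out, and the number called lower with each but spheroids 2. The shares of all genes called fell as well. The 30.3% of these genes called higher therefore rests on all 4 arrays. SQSTM1 probe sets called higher numbered 0 with no filter (1 at an unadjusted limma p under 0.05), against 4.34% of all probe sets. With the filter on all 4 arrays 1 was tested and 0 called (0 unadjusted), against 14.9% of all probe sets. With spike-in scaling (1.89% of all probe sets) and with the t-test (0.00706%) they numbered 0, with 0 unadjusted in each. Without spheroids 1 the difference of 244804_at was 0.98.

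Spike-in scaling turned the sign of GABARAP (-0.026), GABARAPL2 (-0.55), SQSTM1 (-0.57), TAX1BP1 (-0.37), CALCOCO2 (-0.12), RB1CC1 (-0.14), ATG13 (-0.33), ATG14 (-0.48), UVRAG (-0.69), ATG2A (-0.34), WIPI2 (-0.57), ATG10 (-0.55) and the SQSTM1 probe set 213112_s_at (-0.54). Other signs turned with quantile normalization (UVRAG -0.089, ATG12 0.055), with median scaling (UVRAG -0.14, ATG10 -0.00043, 213112_s_at -0.0031) and with the mean of probe sets (ATG5 0.15). With 1 array left out, signs turned for BECN1 (0.011 without monolayer 1, in a range from -0.36), UVRAG (-0.24 without monolayer 2, in a range up to 0.44), ATG9A (0.27 without monolayer 1, 0.26 without spheroids 2, in a range from -0.30), ATG4B (0.096 without monolayer 1, 0.088 without spheroids 2, in a range from -0.13), ATG12 (0.16 without monolayer 2, 0.026 without spheroids 1, in a range from -0.26) and 213112_s_at (-0.045 without spheroids 2, in a range up to 0.52). None of these members was called other than GABARAP, TAX1BP1, CALCOCO2 and RB1CC1.

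Replicate numbers are shared by the groups, but the labels do not state that they pair the cultures, and the deviations of same-numbered arrays correlated at 0.323. With the replicate number as a block, 12 members were called higher and 2 lower (GABARAPL2 and ATG13 in addition), 12 and 7 of the other autophagy genes, and 2114 and 2301 of all genes against 1656 and 1799.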
